A study of Oryctolagus cuniculus with 12 samples.

Results

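NOS3, KDR, VCAM1, PTGS2 and ACE were measured by 21 probes on each rabbit array. The members were chosen by name: a probe belonged to a gene when the RefSeq accession printed for it on the array matched that symbol in RefSeq's list of rabbit genes (assembly mOryCun1.1). They were 5 of the 1264 gene symbols and 21 of the 43603 different probes on the array. NOS3 had 1 probe, PTGS2 had 3, VCAM1 had 5, and KDR and ACE had 6 each, of which 1 ACE probe carried another RefSeq accession than the other 5.

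The products of these genes act at the inner surface of the artery or on the tone of its wall. NOS3, the endothelial nitric oxide synthase, makes the gas that relaxes the smooth muscle beneath the endothelium, and its activity is set in part by the shear of flowing blood. PTGS2 (cyclooxygenase 2) is the inducible enzyme of prostanoid synthesis, and ACE, angiotensin converting enzyme, makes angiotensin II and degrades bradykinin. VCAM1 is an adhesion molecule to which leukocytes bind through integrins, and KDR is the main signalling receptor for vascular endothelial growth factor. Endothelium is a single cell layer of the aorta, so most RNA of a whole ring comes from other cells.

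Rings of 4 mm were cut from the thoracic aorta of male New Zealand white rabbits at 32 weeks of age, between the left subclavian artery and the site of coarctation, and 1 array was hybridized with 1 dye for each of 12 samples. Control rabbits (n = 4) were non-experimental, and the study had no sham-operated group. CoA rabbits (n = 4) had the descending aorta narrowed at about 10 weeks of age with permanent silk suture at a gradient of 20 mmHg, and Corrected rabbits (n = 4) had the same narrowing made with degradable Vicryl suture, so that the aorta widened again but with some residual narrowing. The model therefore holds a mechanical narrowing made after birth, without inherited causes. The comparisons ask how the wall upstream of the narrowing differs in CoA, and whether it still differs after the suture has gone.

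Values are log2 signals, quantile normalized over the 12 arrays, so that a difference of 1 is a doubling. The label of Corrected 3 says that the study left it out. It entered no comparison here, and its values are given apart. The arrays had between 55.8% and 77.7% of spots well above background, except Corrected 3 with 45.6%, and every CoA array had a smaller share than every Control array (55.8% to 69.7% against 69.7% to 77.7%). Arrays with one recorded scan time in their headers were taken to share a slide, which is an inference, since the labels name no slides. By this reading the 4 CoA arrays shared 1 slide with no array of another group, so that the effects of slide and of CoA cannot be told apart, and Corrected 2 shared a slide with Control 1, 2 and 4. Of the pairs of arrays within a group, Control 3 and Control 4 were the closest, with a spread of log2 differences of 0.19 against 0.31 or more for the other pairs, although their scan times differed. The labels do not say whether they came from separate animals. In each comparison a probe was tested when it was detected on at least 8 of the 12 arrays, which 27283 probes were, and p-values were adjusted over all of them.

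Of the members, 15 of 21 probes and 4 of 5 genes passed the detection filter, and KDR was the gene with 0 probes past it. By limma, 0 probes of any gene passed an adjusted p of 0.05 in any of the 3 comparisons (0% in each). At an unadjusted p under 0.05 there were 3877 probes in CoA vs Control, 2278 in Corrected vs Control and 1175 in CoA vs Corrected. With array weights over all 12 arrays, limma put 6063 probes higher and 4987 lower past the adjusted p in CoA vs Control. What is called the study's criterion here is an unadjusted p under 0.05 together with more than a 2-fold change. The study's methods name no test for their p-value, so the p here is from limma and the study's own calls may differ. This is the lowest fold bin that the study counted, and it selected its candidate genes at a larger fold change. In CoA vs Control the criterion was met by 8.81% of the tested probes (979 or 3.59% higher, 1425 or 5.22% lower). It was met by 1 of the 5 members, PTGS2, which was higher. In Corrected vs Control it was met by 5.39% of probes (2.41% higher, 2.98% lower) and again by PTGS2, higher, as 1 member of 5. In CoA vs Corrected it was met by 2.77% of probes and by 0 members. Groups that did not overlap were found for 0 of the 15 detected member probes in each comparison, against 10.2%, 8.85% and 4.24% of all tested probes. The median log2 fold change of all tested probes was 0.06, 0.03 and 0.02 in the order of the comparisons. With each array scaled to its 75th percentile these medians became 0.22, 0.13 and 0.08, and the CoA vs Control counts became 1530 higher and 1221 lower.

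**Figure D1:**
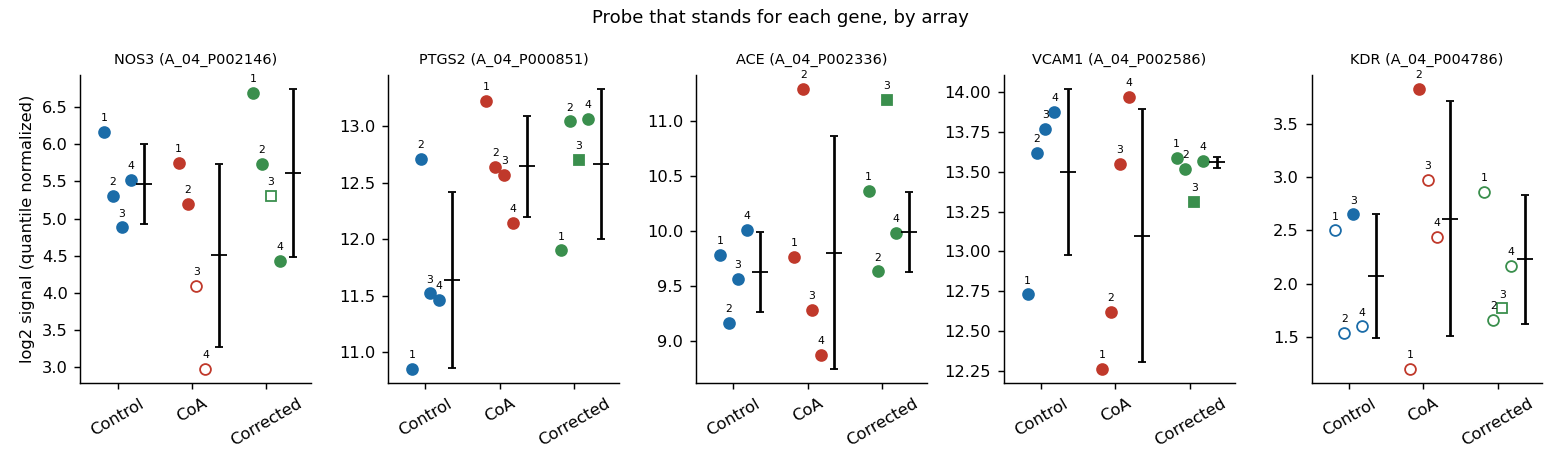
Log2 signal (quantile normalized, own scale in each panel) of the probe that stands for each gene, on the 12 arrays, numbered by replicate. Filled markers are well above background and open ones are not, the square is Corrected 3, and the bar beside each group is the mean ± SD without it: CoA and Control overlap in every panel.

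PTGS2 signal was about 2-fold higher in both operated groups than in Control by the study's criterion with p from limma. It did not pass adjustment over all probes, and 1 Control rabbit was as high as the operated ones. Its brightest probe, A_04_P000851, read 10.85, 12.71, 11.52 and 11.46 on Control 1 to 4. It read 13.22, 12.64, 12.57 and 12.14 on CoA 1 to 4, and 11.90, 13.04 and 13.06 on Corrected 1, 2 and 4. Control 1, 3 and 4 lay below every CoA and Corrected array, and Control 2 lay above CoA 2, 3 and 4 and above Corrected 1, so the groups overlapped. CoA exceeded Control by 1.00 ± 0.43 on the log2 scale (SE; 95% confidence interval 0.06 to 1.95), with an unadjusted limma p of 0.0388 and a Benjamini-Hochberg adjusted p of 0.335. Corrected exceeded Control by 1.03 ± 0.46 (SE; interval 0.01 to 2.05), with an unadjusted limma p of 0.0477 and an adjusted p of 0.596. The exact permutation test over arrays, two-sided, gave 0.114 for both, where the smallest p it allows is 0.0286 for 4 arrays against 4 and 0.0571 for 3 against 4. These comparisons share the Control arrays, so Control 2 and the low Control 1 bear on both. CoA and Corrected differed by -0.03 ± 0.46 (SE), with an interval of -1.05 to 0.99 that holds a doubling in the Corrected direction and nearly one in the other.

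Both other PTGS2 probes also had higher means in CoA and Corrected, and neither met the criterion. The second probe differed by 0.80 in CoA vs Control and by 1.05 in Corrected vs Control, with adjusted p-values of 0.439 and 0.616 from limma. The third and dimmest probe, A_04_P041862, ranged from 3.48 to 6.34 in Control and read 7.62, 6.81 and 7.56 on CoA 1, 3 and 4, all above Control, but 2.75 on CoA 2, below every Control array and not well above background. Its difference was 1.24 with all CoA arrays and 2.38 without CoA 2, where the unadjusted limma p was 0.020 and the adjusted p 0.351. On the brightest probe CoA 2 did not stand apart, and without it the difference stayed at 1.01, with an unadjusted limma p of 0.059. The size of the PTGS2 difference on the dimmest probe depended on 1 array. Within the inferred slide that held both groups, the brightest probe was 1.36 higher on Corrected 2 than the mean of Control 1, 2 and 4.

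The call for PTGS2 by the study's criterion stood close to the limit. It was met under 12 of 24 alternative settings in CoA vs Control, where the difference ranged from 0.74 to 1.36, and under 8 of 25 in Corrected vs Control, where it ranged from 0.77 to 1.41. Leaving out Control 2 raised the differences to 1.36 and 1.39, leaving out Control 1 lowered them to 0.74 and 0.77, and the value of 1.41 came without Corrected 1. With Control 3 and Control 4 counted as 1 sample the differences were 0.96 and 0.98, with unadjusted limma p-values of 0.0783 and 0.0888, and the criterion was not met. The direction was the same under every one of these alternatives.

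**Figure D2:**
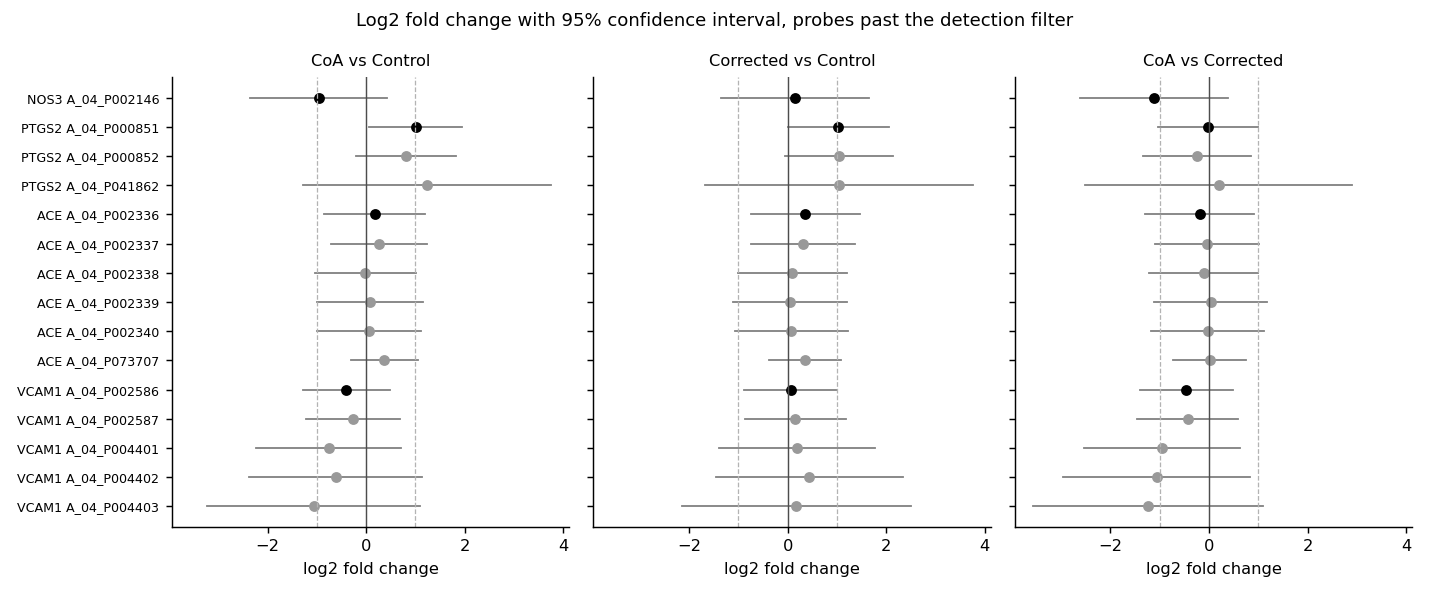
Log2 fold change (point) and 95% confidence interval (line) of the 15 probes past the detection filter, in the 3 comparisons. Black points are the probes that stand for a gene, dashed lines mark a 2-fold change, and the intervals of A_04_P000851 (PTGS2) lie wholly above 0 in both comparisons with Control.

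NOS3 had the lowest mean in CoA, but the arrays within CoA differed by more than the groups did. Its probe, A_04_P002146, read 6.17, 5.30, 4.88 and 5.52 on Control 1 to 4, and 6.69, 5.73 and 4.43 on Corrected 1, 2 and 4. On CoA 1 to 4 it read 5.75, 5.20, 4.09 and 2.97. CoA 3 and CoA 4 lay below every Control array and were not well above background, whereas CoA 1 and CoA 2 lay among the Control arrays. Only 2 of 4 CoA arrays therefore measured NOS3, against 4 of 4 in Control and 3 of 3 in Corrected. CoA was below Control by a log2 fold change of -0.96 ± 0.63 (SE; interval -2.35 to 0.42), with an adjusted limma p of 0.490. Corrected differed from Control by 0.15 ± 0.68 (SE; interval -1.35 to 1.65), with an adjusted limma p of 0.970. CoA differed from Corrected by -1.11 ± 0.68 (SE), with an unadjusted limma p of 0.130. In the exact permutation test the p-values were 0.229, 0.857 and 0.286. CoA 3 and CoA 4 were also the arrays with the smallest shares of spots well above background in their group, 55.8% and 61.7%, and the part of this in the NOS3 values was not tested. With normexp background correction of the median signals, which adds an offset of 50, the differences of CoA were -0.29 from Control and -0.38 from Corrected. Such an offset narrows any difference of a probe this dim, so these smaller values say nothing about how stable the difference is. The quantile normalized differences of CoA depended on single arrays. Without CoA 4 they were -0.45 and -0.60, and without Corrected 1 CoA vs Corrected was -0.58. Without CoA 1, CoA vs Corrected met the study's criterion with -1.53, and without Corrected 4 it met it with -1.71. In a whole ring, fewer endothelial cells and less NOS3 RNA per cell cannot be told apart.

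Of the other genes of the nitric oxide pathway 3 could be tested, too few for their 0 calls to be read as a result. Of 22 genes listed, 5 had a named probe and 3 passed the filter: CAV1, the caveolar protein that binds and restrains NOS3, ARG2, an arginase that competes for its substrate, and PRKG1, the kinase that acts on its cyclic GMP signal. Their differences in CoA vs Control were -0.11 ± 0.23, -0.52 ± 0.47 and 0.65 ± 0.46 (SE). In the order of the comparisons 0 of 3 met the criterion in each, against 8.81%, 5.39% and 2.77% of all tested probes. The median of the 3 was -0.11 in CoA vs Control and 0.46 in Corrected vs Control. NOS1, the neuronal synthase, was above background on 0 of 12 arrays, and ARG1 did not pass the filter.

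ACE did not differ between the groups by more than the arrays differed. Its brightest probe, A_04_P002336, read 9.78, 9.16, 9.56 and 10.01 on Control 1 to 4, and 10.36, 9.63 and 9.98 on Corrected 1, 2 and 4. On CoA 1 to 4 it read 9.76, 11.29, 9.28 and 8.87. CoA held both the highest array, CoA 2, and the lowest, CoA 4. The log2 differences were 0.17 ± 0.47 between CoA and Control (SE; interval -0.85 to 1.2), 0.36 ± 0.50 between Corrected and Control (interval -0.75 to 1.47) and -0.19 ± 0.50 between CoA and Corrected (interval -1.29 to 0.92), with adjusted limma p-values of 0.893, 0.880 and 1.00. Each of these intervals reaches beyond a doubling in 1 direction, so an equal level was not shown.

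The 6 ACE probes were alike in where CoA 2 and Corrected 3 lay, and differed in the order of the other arrays. On each of them CoA 2 was the highest CoA array, between 10.93 and 11.29 on the 5 probes of the first accession and 5.99 on the probe of the second accession, A_04_P073707. The excluded array, Corrected 3, was higher than every Control array on all 6. The highest Control array was Control 4 with 10.01 on A_04_P002336, Control 1 with 10.08 on A_04_P002338 and Control 2 with 5.10 on A_04_P073707. The range of the 6 differences was -0.02 to 0.37 in CoA vs Control and 0.05 to 0.36 in Corrected vs Control. Without CoA 2 the brightest probe differed by -0.33 ± 0.31 (SE) in CoA vs Control, with an unadjusted limma p of 0.313, so that 1 array set the sign of the mean difference. Also without it, CoA vs Corrected moved from -0.19 to -0.69, with an unadjusted limma p of 0.062.

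The angiotensin and kinin list, which holds the receptors and other peptidases of the substrates of ACE, had 6 named genes of 18, and 5 passed the filter. MME, neprilysin, which cleaves bradykinin and natriuretic peptides, met the criterion for a lower level in CoA vs Control at -2.35 ± 1.02 (SE), with an adjusted limma p of 0.339. It was the 1 of 5 called lower there, against 5.22% of all tested probes. Its Control arrays lay between 7.11 and 7.33, and its CoA arrays between 2.84 and 7.61, so the groups overlapped. The angiotensin receptors AGTR1 and AGTR2 differed by 0.47 and 0.21 in CoA vs Control and by -0.10 and -0.37 in Corrected vs Control. The bradykinin receptor BDKRB1 differed by 0.75 and 0.46, and the kallikrein KLK1 by 1.16 and 0.55. Of the 5, 0 met the criterion for a higher level in CoA vs Control, against 3.59% of all tested probes. In Corrected vs Control and CoA vs Corrected 0 met it in either direction, against 5.39% and 2.77%. The median of the list was 0.47 in CoA vs Control and -0.10 in Corrected vs Control. ANPEP, an aminopeptidase, was above background on 0 of 12 arrays.

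VCAM1 was among the bright members on all 12 arrays, and its groups overlapped. Its brightest probe, A_04_P002586, read 12.73, 13.62, 13.77 and 13.88 on Control 1 to 4. It read 12.26, 12.62, 13.55 and 13.97 on CoA 1 to 4, and 13.59, 13.52 and 13.57 on Corrected 1, 2 and 4. The Corrected arrays lay close together, whereas CoA 1, CoA 2 and Control 1 lay lower than all other arrays. CoA differed from Control by -0.40 ± 0.40 (SE; interval -1.28 to 0.48; limma, adjusted p = 0.657), and Corrected differed from Control by 0.06 ± 0.43 (interval -0.89 to 1.01; limma, adjusted p = 0.983). CoA differed from Corrected by -0.46 ± 0.43 (SE; limma, adjusted p = 1.00). Under scaling to the 75th percentile, where the median of all probes was 0.22, the CoA vs Control difference was 0.05.

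All 5 VCAM1 probes had a lower mean in CoA than in Control, between -1.07 and -0.28, and a higher mean in Corrected, between 0.06 and 0.44, but the probes did not follow one pattern on every array. The brighter pair, A_04_P002586 and A_04_P002587, read 12.62 and 12.22 on CoA 2. The other 3, A_04_P004401, A_04_P004402 and A_04_P004403, read 6.36, 5.99 and 4.30 there, where the remaining CoA arrays gave 8.64 to 10.36. Without CoA 2 the 3 dimmer probes were at 0.03, 0.38 and 0.19 in CoA vs Control, in place of -0.76, -0.62 and -1.07, and the brighter pair stayed below 0, at -0.24 and -0.07. The lower mean of 3 of the 5 probes in CoA thus rested on 1 array.

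The same probes parted on Corrected 3. The mean of the brighter pair minus the mean of the 3 dimmer probes was 6.87 on CoA 2 and 7.51 on Corrected 3, and between 3.35 and 4.21 on the other 10 arrays. For PTGS2 the brightest minus the dimmest probe was 9.88 on CoA 2 and 8.10 on Corrected 3, against 4.58 to 7.77 on the other 10. These splits were chosen after the values were seen. For the 479 genes with at least 2 detected probes, which hold 1901 probes, each probe was first centred on its own median over the arrays. The share of probes more than 2-fold from the median of their gene's probes, itself included, was 6.47% on CoA 2, 14.5% on Corrected 3 and 5.0% on Corrected 4. It was 0.79% to 1.47% on the other 9 arrays. CoA 2 also had a low median signal before normalization, 20.4 against 28.1 to 64.0 on the other arrays in the comparisons, and Corrected 3 had the lowest, 8.85. The part of these values in the member results was not tested.

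**Figure D3:**
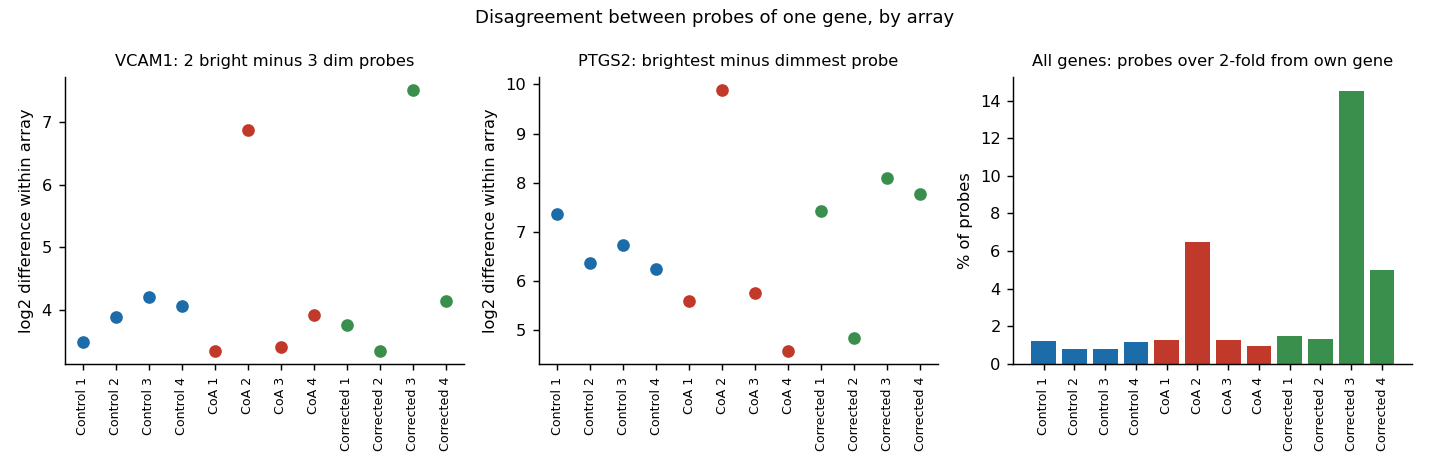
Left and middle, the log2 difference between probes of VCAM1 and of PTGS2 on each of the 12 arrays. Right, over 479 genes, the percentage of probes more than 2-fold from the median of their gene's probes, each probe first centred on its own median. CoA 2, Corrected 3 and Corrected 4 stand above the other arrays.

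KDR was at or near background, and no fold change is given for it. Its brightest probe, A_04_P004786, was well above background on 2 of 12 arrays, Control 3 with 2.65 and CoA 2 with 3.83. The other Control arrays read 2.50, 1.54 and 1.60, the other CoA arrays 1.20, 2.97 and 2.44, and Corrected 1, 2 and 4 read 2.86, 1.66 and 2.17. Each of the 5 other probes was well above background on 0 of 12 arrays. On A_04_P029689 and A_04_P029690 every CoA array and every Corrected array read higher than every Control array (1.58 to 2.63 in CoA and 1.27 to 1.33 in Control for the first), which 7.31% of all 43603 probes did in CoA vs Control and 6.22% in Corrected vs Control. On each array these readings were below the lowest signal that counted as well above background, which was between 2.31 and 4.40 on the arrays in the comparisons.

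Of the list of the VEGF pathway, HIF1A, the oxygen-regulated factor that induces VEGF, was the 1 named gene of 13. It varied from 7.45 to 11.69 in Control and from 5.92 to 10.88 in CoA, and differed by 0.46 ± 1.30 (SE) in CoA vs Control. With an SE of this size no direction was read from it.

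**Figure D4:**
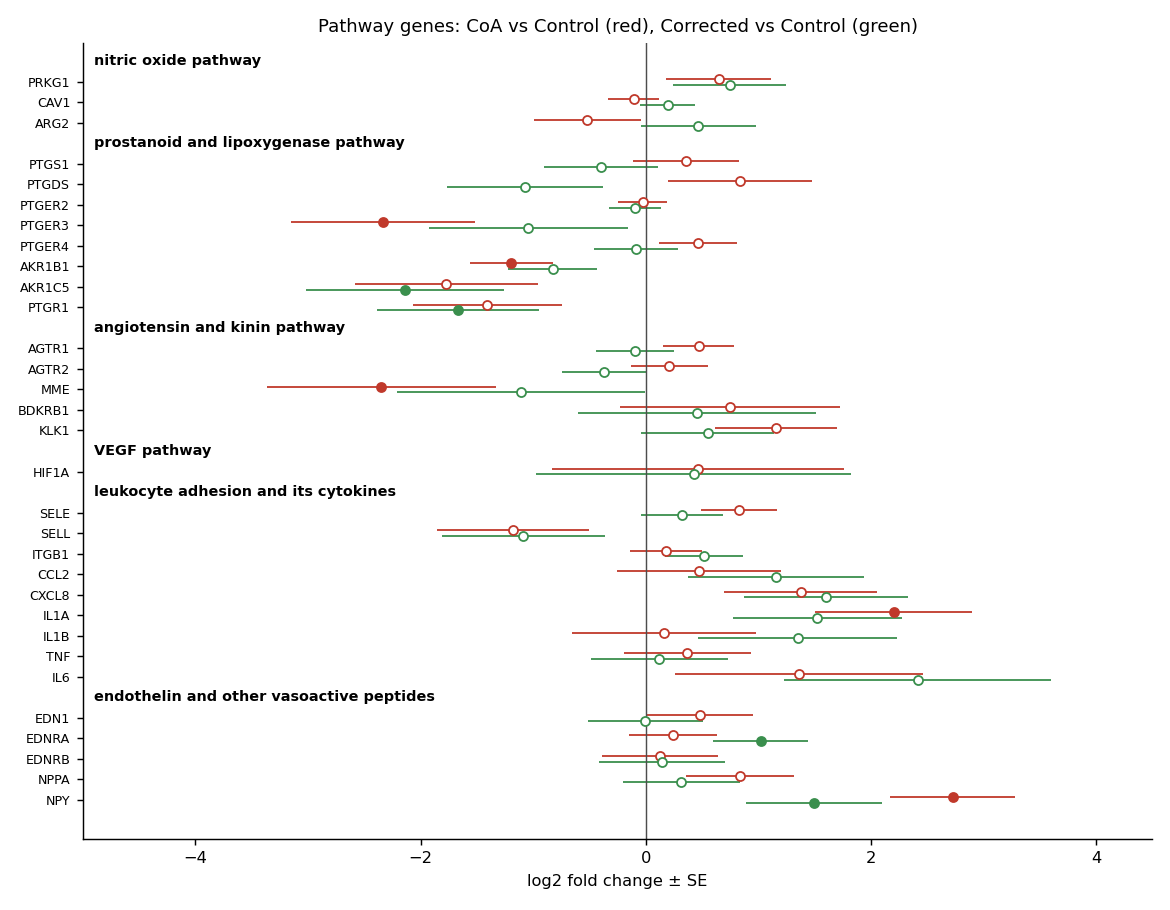
Log2 fold change ± SE of the pathway genes past the detection filter, CoA vs Control in red and Corrected vs Control in green. Filled points met the 2-fold and unadjusted p under 0.05 criterion, among them PTGER3, AKR1B1 and MME (lower in CoA) and IL1A and NPY (higher in CoA).

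Around PTGS2, the prostanoid list had 10 named genes of 29, of which 8 passed the filter. By the criterion 2 of the 8 were lower in CoA vs Control, where 5.22% of all tested probes were. They were PTGER3, a receptor for prostaglandin E2, at -2.33 ± 0.82 (SE; limma, adjusted p = 0.286) and AKR1B1, an aldo-keto reductase, at -1.20 ± 0.37 (limma, adjusted p = 0.262). In Corrected vs Control 2 others of the 8 were lower, against 2.98% of tested probes, AKR1C5 at -2.14 and PTGR1, which inactivates prostaglandins and leukotrienes, at -1.67. Their CoA vs Control values were -1.77 and -1.41, short of the criterion. PTGDS, which makes prostaglandin D2, was higher in CoA than in Corrected by the criterion, at 1.91, as 1 of 8 genes called there against 2.77% of probes in either direction. PTGS1, the constitutive cyclooxygenase, differed by 0.36 ± 0.47 in CoA vs Control and by -0.40 ± 0.51 in Corrected vs Control (SE). The receptors PTGER2 and PTGER4 differed by -0.03 and 0.46 in CoA vs Control. The list had 0 genes higher by the criterion than Control in either comparison, against 3.59% and 2.41% of all tested probes. Its medians were -0.61 and -0.94.

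Around VCAM1, the list of adhesion molecules and cytokines had 9 named genes of 22, all past the filter. IL1A, interleukin 1 alpha, was higher in CoA vs Control by 2.20 ± 0.70 (SE; limma, adjusted p = 0.269) and was the 1 gene of 9 that met the criterion there, against 3.59% of all tested probes called higher. In Corrected vs Control 0 of 9 met it, against 5.39% of all tested probes. E-selectin, SELE, another adhesion molecule of activated endothelium, differed by 0.83 ± 0.34 and 0.32 ± 0.36, and its CoA arrays (5.24 to 6.69) all lay above its Control arrays (4.82 to 5.22), as did CoA arrays of 6.87% of the tested probes. CXCL8 and IL6 had differences of 1.38 and 1.36 in CoA vs Control and of 1.60 and 2.42 in Corrected vs Control, short of the criterion. In both comparisons with Control, 8 of 9 genes had a higher mean, and the median was 0.47 and 1.16, where the means of 54.5% and 52% of all tested probes were higher.

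Among endothelin and other vasoactive peptides, 6 of 15 genes were named and 5 passed the filter. Neuropeptide Y, NPY, a vasoconstrictor of sympathetic nerves, was higher in CoA by 2.72 ± 0.56 and in Corrected by 1.49 ± 0.60 (SE), with adjusted limma p-values of 0.217 and 0.563. The endothelin receptor EDNRA was higher in Corrected vs Control by 1.02 ± 0.42. By the criterion 1 of the 5, NPY, was higher in CoA vs Control, against 3.59% of all tested probes. In Corrected vs Control 2 of the 5, NPY and EDNRA, were higher by it, against 2.41%. EDN1, endothelin 1 itself, differed by 0.48 ± 0.48 in CoA vs Control, and EDNRB by 0.13 ± 0.52.

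The cell types behind these levels could be checked only in part. Of 26 endothelial markers 1 had a named probe, THBD, thrombomodulin, which differed by 0.22 ± 0.34 in CoA vs Control and by 0.69 ± 0.37 in Corrected vs Control (SE), with 0 of 1 past the criterion and arrays at 8.17 to 8.65 in Control, 7.89 to 9.10 in CoA and 8.46 to 9.65 in Corrected. Of 12 smooth muscle markers 5 had a probe, all well above background on 12 arrays, and 0 of 5 met the criterion. Of all tested probes, 3.59% were higher and 5.22% lower by the criterion in CoA vs Control. The shares were 2.41% and 2.98% in Corrected vs Control. In CoA the globin genes HBA and HBB2 were lower by the criterion, at -3.37 ± 0.85 and -1.46 ± 0.57, as were the adipocyte genes ADIPOQ and PPARG at -2.99 ± 0.98 and -3.17 ± 0.89. They were 2 of 2 erythroid and 2 of 4 adipocyte genes past the filter. The other adipocyte genes past it, LPL and LEP, differed by -1.49 and 0.17. UCP1 and the erythroid marker ALOX15 missed the filter, at -3.09 and 1.435. The cardiac genes TNNC1 and PLN were higher by the criterion, at 3.31 ± 0.99 and 1.39 ± 0.43, and so were the skeletal muscle gene TNNC2 at 3.12 and the macrophage gene SPP1 at 2.86 ± 0.65. TNNC2 was the 1 of 7 skeletal muscle markers to meet it there, and 5 of the 7 had a lower mean in CoA than in Control: MYH1 (-0.31), ACTN3 (-0.50), TNNI2 (-0.97), ATP2A1 (-0.80) and RYR1 (-0.45). CKM differed by 1.26, with CoA arrays from 3.865 to 13.28. In Corrected, TNNC1, SPP1, TNNC2 and the skeletal myosin gene MYH1 were higher by 2.38, 1.95, 2.56 and 2.82, and PPARG was lower at -2.29. TNNC2 and MYH1 were 2 of 7 skeletal muscle markers, and MYH1 ranged from 5.275 to 9.962 on the Corrected arrays. The others were ATP2A1 (1.82), ACTN3 (0.33), TNNI2 (0.09), CKM (-0.57) and RYR1 (-0.73). PPARG was 1 of 4 adipocyte genes past the filter, beside ADIPOQ (-1.15), LPL (-0.60) and LEP (0.26). Of 6 T cell genes with a probe, 2 passed the filter: CD5 was lower in CoA and in Corrected, at -1.27 and -2.41, and RAG2 was higher in CoA by 1.21. Among those that missed the filter, CD3E differed from Control by -2.46 in CoA and -3.2 in Corrected, and CD247 by -2.19 and -2.45. CD4 (0.295 and -0.12) and CD28 (0.37 and 0.34) also missed it. Of the fibroblast and matrix genes, 0 of 4 met the criterion. Of the 4 macrophage markers with a probe, SPP1 was the 1 that met the criterion, and the summed linear signal of the 4 ranged from 1986 to 6806 in Control, 6769 to 22080 in CoA and 5883 to 9486 in Corrected. SPP1, the brightest of the 4 with a CoA mean of 13.44, made up most of that sum in CoA. CD14, MSR1 and TLR4 differed by 0.36, 0.79 and 0.03 in CoA vs Control, short of the criterion. The part of other cell types in the levels of PTGS2, VCAM1, NOS3 and ACE was not tested.

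The genes whose array-to-array pattern was most like each member were sought among 952 other gene symbols, over the 11 arrays, which share the group differences and the normalization. For PTGS2 these were ROCK1 (Pearson r = 0.91, Spearman rho = 0.78), TMED7 (r = 0.89, rho = 0.85) and INMT (r = 0.88, rho = 0.87), and r was 0.88, 0.80 and 0.76 without Control 1 and Control 4, the arrays farthest from the PTGS2 median. For ACE they were NHERF2 (r = 0.90, rho = 0.82), AMHR2 (r = 0.88, rho = 0.82) and GYS1 (r = 0.84, rho = 0.78), with r of 0.73, 0.64 and 0.67 without CoA 2 and CoA 4. For VCAM1 the nearest was the globin gene HBB2 (r = 0.82, rho = 0.58), and r was 0.04 without CoA 1 and CoA 2, so that relation rested on those arrays. FMO5 and DSG4 followed with r of 0.76 and 0.74 (rho = 0.71 and 0.64), and with 0.41 and 0.20 without the same arrays. For NOS3 the nearest were OXTR (r = 0.72, rho = 0.53) and JPH2 (r = 0.72, rho = 0.45), with 0.30 and 0.53 without CoA 4 and Corrected 1. These values are the highest of 952 and are given as a description.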

How the data were processed

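Per the labels and file headers, the authors hybridized Cy3-labelled RNA to 1-colour Agilent rabbit arrays and deposited Agilent Feature Extraction 11.0.1.1 output. The deposited processed signal is an intensity after background subtraction within each array, not normalized between arrays. Median signal and background intensities were used for 1 alternative, normexp correction with an offset of 50. The study's methods name quantile normalization and detection on 8 of 12 samples, which were followed here. The fold and p criterion used here is the lowest fold bin that the study counted, below the fold change at which it selected its candidate genes.

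Here outlier spots were left out, log2 processed signals were quantile normalized over 12 arrays, and spots of a probe were averaged. A probe was detected where most of its spots carried both the positive-and-significant and the well-above-background flag. One model with 3 group means was fitted to 11 arrays in limma 3.58.1 (R 4.3.3, statmod 1.5.0), two-sided, with Benjamini-Hochberg adjustment over 27283 probes. It was tested on simulated data first. Symbols were found for 3368 probes (7.72%) in the mOryCun1.1 table. The array annotation names another build, so no coordinates are given. Probes without a symbol were not searched for these genes. The probe with the highest mean signal stood for a gene. Genes named were the members, pathway and marker genes with a probe, and the 3 symbols with the highest r for each member, of which 1 is not reported here. Members and lists were chosen with earlier results of these data known. The labels number the samples without naming animals, so p-values measure the spread between these samples, which may be technical in part. The number of arrays limits the precision. Python 3.11.15 with numpy 2.4.6, pandas 2.3.3, scipy 1.17.1 and matplotlib 3.10.9 was used for tables, permutation tests and plots. Alternatives covered arrays used, array weights, normalization, background, filters, moderation, slide and replicate blocks, other probes and leaving out each array.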

Additional observations from a re-analysis of the deposited data

Results flagged for a closer look

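In 42 sets of 4 arrays (1 probe in 1 group of 4), 2 held an array farther from the rest than Dixon's limit, and chance flags about 1 in 20. For the PTGS2 probe A_04_P041862, CoA 2 read 2.75 where the nearest CoA array read 6.81, a gap of 0.834 of the range. For the VCAM1 probe A_04_P004401, Control 1 read 8.90 where the nearest Control array read 9.63, a gap of 0.840 of the range.

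Outside the comparisons, the ACE probe A_04_P002336 read 11.19 on Corrected 3, above the Control arrays, which read 9.16 to 10.01.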

How the results depend on the processing

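For VCAM1 the CoA vs Control difference became 0.05 under scaling to the 75th percentile. Its Corrected vs Control difference became -0.0030 with all 12 arrays and -0.22 with array weights. With array weights, 6063 of the 27283 tested probes were higher and 4987 lower past the adjusted p in CoA vs Control. PTGS2 was among those higher (1.12, limma, adjusted p = 0.00532). Its adjusted limma p was 0.103 to 0.631 under its other alternatives. In CoA vs Corrected PTGS2 became 0.08 with array weights, 0.15 under the 75th percentile and 0.19 on its dimmest probe. ACE in CoA vs Control became -0.45 with array weights and -0.02 on probe A_04_P002338. ACE in Corrected vs Control became -0.02 with slide as a fixed block, and in CoA vs Corrected it became 0.04 with normexp and 0.03 and 0.01 on probes A_04_P002339 and A_04_P073707. The cause was not tested.

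The labels do not say whether the replicate numbers pair the samples, and so few correlations cannot settle it. Same-numbered arrays deviated together with r of -0.45 to 0.45, and 2 of 10 pairs were over 0.1. They were Control 1 with Corrected 1 (0.30) and Control 2 with Corrected 2 (0.45). With replicate number as a block NOS3 in CoA vs Control stayed at -0.96, with an unadjusted limma p of 0.047 in place of 0.154 and an adjusted p of 0.352. With the replicate block the number of members past the study's criterion fell to 0 in both comparisons with Control, NOS3 in Corrected vs Control became -0.02, and PTGS2 in CoA vs Corrected became 0.01. The block turned no other direction and no adjusted call.

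That number, 1 (PTGS2) in both comparisons with Control, was also 0 in both under normexp, without variance moderation, with slide as a random block and with Control 3 and 4 as 1 sample. In Corrected vs Control it was 0 with slide as a fixed block, with the positive flag alone and with the groups compared alone. Without CoA 2 and Corrected 4, an alternative chosen after seeing the data, it was 0 in both and 1 (NOS3) in CoA vs Corrected, where PTGS2 was 0.17 and ACE in CoA vs Control was -0.33.

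Leaving out 1 array at a time, the number ranged from 0 to 1 in each comparison. In CoA vs Control it was 0 without Control 1, 3 or 4 and without CoA 1, 2 or 3. In Corrected vs Control it was 0 without Control 1, 3 or 4, CoA 2, 3 or 4, or Corrected 2 or 4. In CoA vs Corrected it was 1 (NOS3) without CoA 1 or Corrected 4. The differences in the order CoA vs Control, Corrected vs Control, CoA vs Corrected ranged for NOS3 from -1.38 to -0.45, -0.39 to 0.74 and -1.71 to -0.58, for VCAM1 from -0.69 to -0.12, -0.20 to 0.19 and -0.75 to -0.18, for PTGS2 from 0.74 to 1.36, 0.77 to 1.41 and -0.41 to 0.17, and for ACE from -0.33 to 0.48, 0.18 to 0.54 and -0.69 to 0.12. The sign of NOS3 in Corrected vs Control turned without Corrected 1 (-0.39) or Control 3 (-0.04), that of VCAM1 there without Control 1 (-0.20), and that of PTGS2 in CoA vs Corrected without CoA 4, Corrected 2 or Corrected 4. That of ACE turned in CoA vs Control without CoA 2 and in CoA vs Corrected without CoA 4. KDR was too dim for any of these.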
